A study of Arabidopsis thaliana with 36 samples.

Results

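Root sections of Arabidopsis thaliana in which a second Aux/IAA repressor was added to the endodermis were compared directly with their background after 16 h of auxin. They carried CASP1::shy2-2 in the mutant slr-1 (CASP1::shy2-2/slr-1): in them the promoter of CASP1, a gene switched on in the differentiating endodermis, drives shy2-2, an allele of the repressor gene IAA3 (SHY2) whose protein resists degradation. They were set against slr-1, the parental mutant, whose repressor IAA14 resists degradation in the same manner and which makes no lateral roots. Both genotypes therefore carry slr-1, both are in the Col-0 ecotype, and both were exposed to 10 µM 1-naphthaleneacetic acid (NAA), a synthetic auxin, for 16 h. Seedlings were grown for 6 days before transfer and were 7 days old at harvest, when the shoot with the hypocotyl and about 3 mm of root tip were cut away. The comparison uses 3 libraries of each genotype, 6 of the 36 libraries of a time course that also holds untreated roots and 2, 4, 8 and 24 h of NAA. The files list 32678 genes, of which 20939 had enough reads to be tested. The labels do not say that the 3 libraries of a group came from separate cultures, nor how many transformed lines CASP1::shy2-2/slr-1 represents. The p-values therefore measure only the spread between libraries of a group, estimated over all 36 libraries.

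Auxin releases transcription by marking Aux/IAA repressors for degradation through the TIR1/AFB receptors, which frees the auxin response factors (ARFs) that the repressors hold. Stabilised forms such as those of slr-1 and shy2-2 keep the response shut in the cells that make them. Lateral roots start in the pericycle, inside the endodermis, and the endodermis is the cell layer that carries the Casparian strip, a lignin band, and later suberin, a polyester of fatty acids, alcohols and phenolics that is laid down as a lamella around the cell.

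The 16 h libraries held 34.5 to 44.4 M reads in genes, and each had a read in 22394 to 22783 genes. The first principal component of the 6 libraries, 49.2% of the variance, separated the genotypes, at 22.3, 31 and 58.9 for CASP1::shy2-2/slr-1 and at -47.6, -47.1 and -17.5 for slr-1. The second, 32.3%, set replicate 3 of each genotype apart from replicates 1 and 2. Both replicates 3 have a library code ending in n, which the labels leave unexplained. Across the genotypes the deviations of both replicates 3 went together. Those of replicates 1 and 2 went together whether or not the numbers matched. Deviations are from the mean of the 3 libraries of a group, so this follows in part from replicates 3 going together. Replicate 2 of each genotype had the most reads not assigned to a gene, 7.698% in CASP1::shy2-2/slr-1 and 8.361% in slr-1, against 5.561 to 5.672% in the other 4 libraries.

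The added transgene did not show as more IAA3 transcript. IAA3 had 24, 21.9 and 22.9 CPM (read counts scaled to the library size) in CASP1::shy2-2/slr-1, against 82.8, 78.1 and 86.7 CPM in slr-1. All 3 libraries of CASP1::shy2-2/slr-1 lay far below those of slr-1, and the log2 fold difference, CASP1::shy2-2/slr-1 over slr-1 here and throughout, was -1.85 ± 0.13 (standard error, adjusted p = 1.34e-11). Without NAA the difference was 0.16 ± 0.12 (adjusted p = 0.351), with 44.8 ± 7.6 CPM in CASP1::shy2-2/slr-1 and 40 ± 2.11 CPM in slr-1 (SD, n = 3 each). At 2, 4, 8 and 24 h of NAA it was -0.23, -0.83, -1.49 and -0.64, so at no time was IAA3 called higher in the line that carries the extra copy. Counts per gene pool the transgene with the gene itself, and the gene's model overlaps that of AT1G04230 by 640 bases, with the use of strand in counting not stated.

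IAA14, the gene mutated in both genotypes, had 10.2, 7.6 and 7.25 CPM in CASP1::shy2-2/slr-1, against 16.5, 13.2 and 22.1 CPM in slr-1. The groups did not overlap, and the difference was -1.05 ± 0.28 (adjusted p = 0.0145). The call was lost without slr-1 replicate 3 and without replicate 2 or 3 of CASP1::shy2-2/slr-1, with adjusted p up to 0.07 in these fits and from 0.00244 to 0.18 over the 17 alternatives. CASP1, the source of the promoter, had 8.99, 3.36 and 2.76 CPM in CASP1::shy2-2/slr-1, against 2.56, 2.37 and 0.737 CPM in slr-1. Its difference of 1.41 ± 0.72 did not pass (adjusted p = 0.253), and passed when the replicate number was taken as a block (adjusted p = 0.0386, the lowest over the alternatives, with 0.609 the highest). CASP1 was lower after 16 h of NAA than without it in both genotypes, by a log2 difference of -3.40 ± 0.67 in CASP1::shy2-2/slr-1 and -3.97 ± 0.72 in slr-1 (adjusted p = 0.000448 and 0.000136).

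Across all genes, 1814 of the 20939 tested (8.66%) passed an adjusted p of 0.05 at 16 h. Of these, 750 (3.58%) were higher in CASP1::shy2-2/slr-1 and 1064 (5.08%) were lower there. The lower genes were also the further displaced: 186 lay beyond 4-fold and 69 beyond 16-fold, against 91 and 23 of the higher genes, with median log2 differences of -0.76 and 0.64. In 1641 of the 1814 (90.5%) the 3 libraries of one genotype all lay beyond the other 3, a separation seen in 19.7% of all genes tested. The median difference of all genes was 0.00, and their 5th and 95th percentiles were -0.73 and 0.61. The count rests on the libraries used: it was 1112, 1092 and 3274 without slr-1 replicate 1, 2 and 3, 810 without both replicates 2 and 658 when only the 6 libraries were fitted. Of 100 called genes that the naming rule chose, 42 missed the threshold in that last fit.

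In the fit of all libraries the count at 16 h was the lowest of the times sampled. Without NAA 5223 genes passed (24.9%), 2572 higher (12.3%) and 2651 lower (12.7%). At 2, 4 and 8 h the totals were 3824 (18.3%), 3355 (16%) and 3069 (14.7%), and at 24 h 2673 (12.8%). The 16 h count, and with it the order, can change with the libraries and the fit. Without slr-1 replicate 3 it was 3274, above the counts at 8 and 24 h with all libraries kept. With the replicate number as a block it was 2467 at 16 h and 1429 without NAA, where the numbers were not taken to pair. With only the groups compared fitted and no block the order held, at 658 at 16 h and 2915 without NAA. The comparisons at other times share no library with the 16 h one. They come from the same fit and share each gene's estimate of the spread, so the overlaps are not independent of it. Of the 750 genes higher at 16 h, 299 were also higher without NAA (39.9% of the 16 h list and 11.6% of the untreated list), 45 were lower there and 406 were not called there. Of the 1064 lower genes, 317 were also lower without NAA (29.8 and 12%), 64 were higher there and 683 were not called. The overlap was larger with the neighbouring times: 577 of the lower genes were lower at 8 h too (54.2% of the 16 h list, 34.1% of the 8 h list) and 544 at 24 h (51.1 and 42.6%). Of the higher genes, 322 were higher at 8 h (42.9 and 23.4%) and 362 at 24 h (48.3 and 25.9%). Of the 20939 genes tested, 1692 were lower and 1377 higher at 8 h, and 1278 and 1395 at 24 h.

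**Figure D1:**
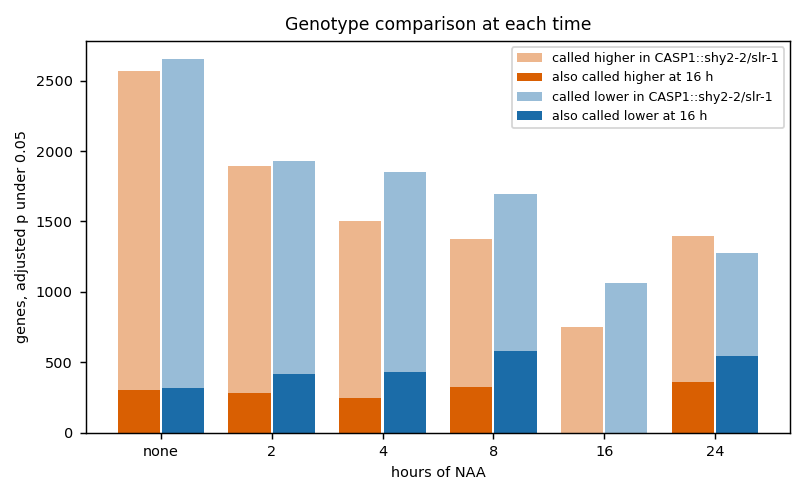
Number of genes with an adjusted p under 0.05 between the genotypes (y axis) without NAA and after 2, 4, 8, 16 and 24 h (x axis), with genes higher in CASP1::shy2-2/slr-1 in orange and lower in blue. The dark lower parts are genes called in the same direction at 16 h; the 16 h bars stand at 750 and 1064.

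The 12 largest rises in CASP1::shy2-2/slr-1 were taken among genes that averaged a log2 CPM of 1 or more and whose groups did not overlap. GLIP2, a GDSL-motif lipase, had 16.5, 13.5 and 21.1 CPM in CASP1::shy2-2/slr-1, against 0.911, 0.505 and 0.86 CPM in slr-1, a log2 difference of 4.47 ± 0.38 (adjusted p = 8.8e-10). AT1G78990, which the reference annotates as an HXXXD-type acyl-transferase, had 73.9, 80.5 and 90.5 CPM against 2.91, 2.66 and 6.17 CPM in slr-1, a difference of 4.38 ± 0.29 (adjusted p = 5.74e-12). A second member of that acyl-transferase family, AT5G02890, differed by 2.75 ± 0.25 (adjusted p = 2.61e-09). AT4G11290, AT5G19890 and RCI3 are class III peroxidases, enzymes that can couple lignin monomers, and differed by 4.26 ± 0.40, 3.57 ± 0.58 and 2.66 ± 0.36. Other members of this family were lower, AT2G38390 by -5.28 ± 0.21 and AT2G38380 by -2.27 ± 0.19, and the family was not counted over all genes. RCI3 had 81.1, 50.1 and 52.6 CPM in CASP1::shy2-2/slr-1, against 9.89, 10.1 and 8.95 CPM in slr-1. Also among the 12 rises were LAC3, a laccase (3.07 ± 0.52, adjusted p = 0.000165), and KCS17, an enzyme of the family that elongates very long fatty acids (2.68 ± 0.22, adjusted p = 3.11e-10).

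The remaining 4 of these 12 genes were MYB53, a MYB transcription factor described with suberin below, the cytochrome P450 CYP71A20 (3.16 ± 0.50), the floral MADS-box factor AP3 (2.96 ± 0.31) and the CBS domain protein AT5G52790 (2.85 ± 0.30). AP3 had 6.67, 5.85 and 5.49 CPM in CASP1::shy2-2/slr-1, against 0.629, 0.877 and 0.811 CPM in slr-1, and differed by 3.49 ± 0.31 without NAA as well (adjusted p = 7.22e-09). CYP71A20 was uneven within the genotype, at 8.21, 8.63 and 27.2 CPM in CASP1::shy2-2/slr-1, against 1.21, 1.01 and 2.68 CPM in slr-1, and its call was lost in the fit of the 6 libraries alone (adjusted p = 0.0531). All 12 rises kept their call with each of the 6 libraries left out.

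The largest falls were deeper, several of them near the loss of all reads. UMAMIT25, a transporter of the amino acid exporter family, had 0.145, 0.111 and 0.199 CPM in CASP1::shy2-2/slr-1, against 151 ± 9 CPM in slr-1 (SD, n = 3; -9.96 ± 0.31, adjusted p = 9.04e-19). Without NAA it was already apart, at 0.169 ± 0.0762 CPM in CASP1::shy2-2/slr-1 and 17.1 ± 1.5 CPM in slr-1, and NAA raised it in slr-1 by 3.14 ± 0.19 (adjusted p = 3.14e-12) but moved it by -0.14 ± 0.57 in CASP1::shy2-2/slr-1 (adjusted p = 0.879). HIPP22, a protein with a heavy-metal binding domain, and the desiccation-like protein AT3G62730 each differed by -7.64, with 0.313, 0.422 and 0.426 CPM of HIPP22 in CASP1::shy2-2/slr-1 and 71.6, 83.8 and 77 CPM in slr-1.

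SAG29, a sugar transporter known from senescing leaves, had 1.93, 0.711 and 0.682 CPM in CASP1::shy2-2/slr-1, against 141, 141 and 75.4 CPM in slr-1 (-6.73 ± 0.49, adjusted p = 3.48e-11). CEP2, a papain-type cysteine protease, had 12.9, 4.4 and 5.83 CPM in CASP1::shy2-2/slr-1, against 298, 312 and 352 CPM in slr-1 (-5.37 ± 0.54, adjusted p = 3e-08). Neither gene was as far apart without NAA, where SAG29 differed by -1.25 ± 0.44 (adjusted p = 0.0376) and CEP2 by -0.54 ± 0.46 (adjusted p = 0.412).

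AT2G38390, a class III peroxidase, had the most reads of the 12 falls, with 90.4, 69.8 and 87.6 CPM in CASP1::shy2-2/slr-1, against 2919.8, 3256.7 and 3416.2 CPM in slr-1 (-5.28 ± 0.21, adjusted p = 9.36e-17). Its neighbour in the same family, AT2G38380, had 408, 395 and 351 CPM in CASP1::shy2-2/slr-1 and 1829.4, 1887.9 and 1858.9 CPM in slr-1, a smaller difference of -2.27 ± 0.19 (adjusted p = 7.26e-10). Reads shared between the pair could have been split in counting. Also among the 12 were MYB60 (-6.24 ± 0.26), a MYB factor known from guard cells, SSL2 (-5.04 ± 0.20), a strictosidine synthase-like protein, the extensin family gene AT5G22430 (-6.95 ± 0.37), the cystatin family gene AT5G47550 (-5.40 ± 0.21) and AT5G15360 (-5.87 ± 0.33), whose product is uncharacterised. MRD1 (-6.67 ± 0.44) overlaps another protein-coding model by 1446 bases, so its value is uncertain. AT5G15360 and MRD1 were as far apart without NAA, at -6.11 ± 0.35 and -6.38 ± 0.43. The 12 were taken among genes that averaged a log2 CPM of 1 or more and whose groups did not overlap. All 12 kept their call with any 1 library left out.

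**Figure D2:**
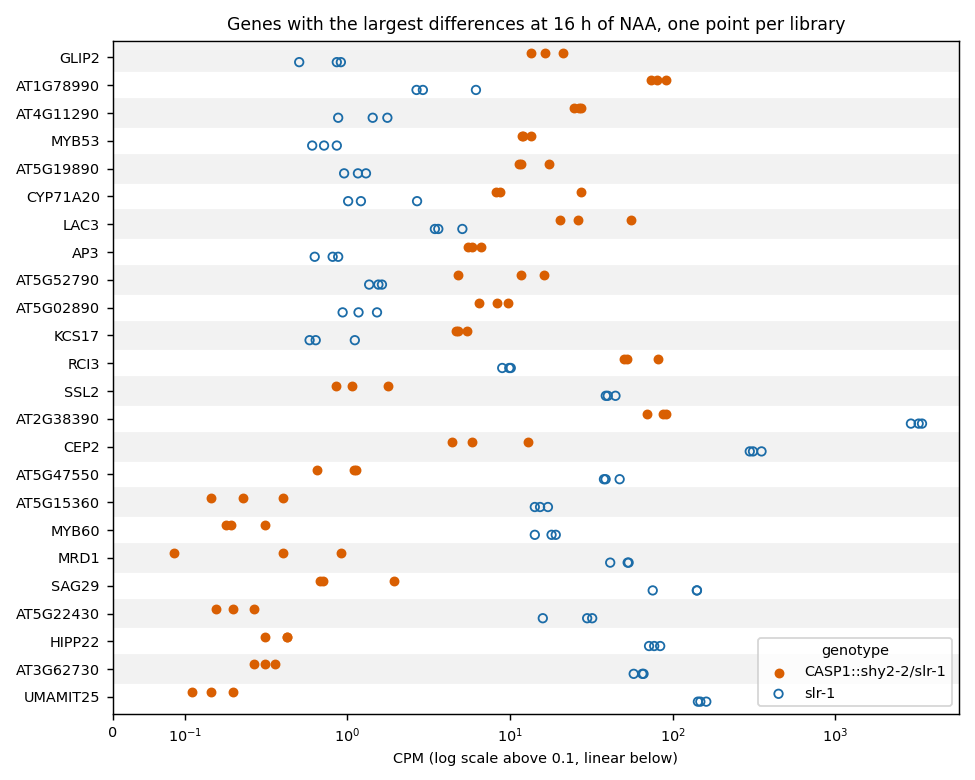
CPM in each 16 h library (x axis, logarithmic above 0.1 and linear below) of the 12 genes with the largest rises and the 12 with the largest falls (y axis), with CASP1::shy2-2/slr-1 as filled orange points above the open blue points of slr-1. Genes with overlapping groups or a mean log2 CPM under 1 could not be chosen. UMAMIT25 lies under 0.2 CPM in every CASP1::shy2-2/slr-1 library and above 140 CPM in every slr-1 library.

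Of the Aux/IAA repressors, 27 of 29 were tested, and 9 were lower and 0 were higher in CASP1::shy2-2/slr-1, where 5.08% of all genes were lower and 3.58% higher. The median difference was -0.30, against 0.00 for all genes. The clearest after IAA3 was IAA29, with 12.4, 7.07 and 15.8 CPM in CASP1::shy2-2/slr-1 and 41.2, 44.7 and 45.7 CPM in slr-1 (-1.90 ± 0.21, adjusted p = 1.28e-07). IAA1 had 14.5, 11 and 11.8 CPM in CASP1::shy2-2/slr-1, against 32.3, 34.7 and 22.6 CPM in slr-1 (-1.26 ± 0.20, adjusted p = 8.09e-05). IAA10 and IAA4 were lower by smaller amounts, -0.51 ± 0.10 and -0.56 ± 0.14 (adjusted p = 0.00112 and 0.00774). The IAA10 call was lost in the fit of the 6 libraries alone (adjusted p = 0.0587) and that of IAA4 without both replicates 2 (adjusted p = 0.085). The other calls were IAA14, IAA7, IAA2 and IAA26, each of which was lost with at least 2 of the libraries left out in turn, so that the count fell to 5 without replicate 2 of CASP1::shy2-2/slr-1 and was 7 or 8 without each of the others. IAA7, IAA2 and IAA26 were chosen after their values were seen. It was 4 in the fit of the 6 libraries alone. IAA31 was the least different, at -0.02 ± 0.37. Much of the list was lower without NAA as well. There 0 of the 27 were higher and 7 were lower, where 12.3% and 12.7% of all genes were, and the median was -0.24. The difference between the 2 conditions passed for 3 genes in the higher direction and 4 in the lower, beside 4.52% and 4.92% of all genes.

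GH3 enzymes inactivate auxin by joining it to amino acids, and their genes are classical early auxin targets. Here 2 of the 11 tested genes of auxin conjugation and oxidation were higher and 0 were lower, beside 3.58% and 5.08% of all genes. GH3.3 had 1670.1, 2622.5 and 2361.4 CPM in CASP1::shy2-2/slr-1, against 1062.3, 1042.9 and 1326.1 CPM in slr-1 (0.96 ± 0.22, adjusted p = 0.00433). GH3.2 had 635, 975 and 1047.1 CPM in CASP1::shy2-2/slr-1, against 413, 435 and 606 CPM in slr-1 (0.87 ± 0.16, adjusted p = 0.000516). Without NAA the estimated gaps were wider, 1.67 for GH3.3 and 2.38 for GH3.2 (adjusted p = 5.2e-06 and 1.08e-10). The 16 h difference minus the untreated one passed for GH3.2, at -1.52, and did not pass for GH3.3. At 2 h GH3.3 differed the other way, by -1.08 (adjusted p = 0.000765). Both GH3 calls at 16 h missed the threshold in the fit of the 6 libraries alone, at adjusted p of 0.073 for GH3.3 and 0.152 for GH3.2. Over all alternatives the adjusted p lay between 0.000278 and 0.138 for GH3.3 and between 4.09e-06 and 0.152 for GH3.2.

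The motif that ARF proteins are known to bind is the sequence TGTCTC, or its variant TGTCGG. The promoters of 4 auxin-regulated genes that hold a match and moved in opposite directions are shown. Each is the 250 bases before the annotated start in the TAIR10.1 reference, 5′ to 3′ on the strand of the gene, with matches to either motif on either strand in capitals.
IAA1, chr4:8360746-8360995, plus strand: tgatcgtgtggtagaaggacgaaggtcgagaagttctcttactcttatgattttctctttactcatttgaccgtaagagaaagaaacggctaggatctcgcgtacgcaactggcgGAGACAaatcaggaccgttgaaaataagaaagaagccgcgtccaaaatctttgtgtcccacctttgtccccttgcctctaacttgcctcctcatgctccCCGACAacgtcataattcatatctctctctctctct
LBD33, chr5:1831468-1831717, minus strand: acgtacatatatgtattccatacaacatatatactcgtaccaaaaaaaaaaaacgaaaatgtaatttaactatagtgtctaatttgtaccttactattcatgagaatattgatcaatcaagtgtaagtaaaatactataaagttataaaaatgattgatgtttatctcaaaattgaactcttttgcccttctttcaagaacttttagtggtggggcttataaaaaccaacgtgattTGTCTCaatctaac
GH3.2, chr4:17579368-17579617, plus strand: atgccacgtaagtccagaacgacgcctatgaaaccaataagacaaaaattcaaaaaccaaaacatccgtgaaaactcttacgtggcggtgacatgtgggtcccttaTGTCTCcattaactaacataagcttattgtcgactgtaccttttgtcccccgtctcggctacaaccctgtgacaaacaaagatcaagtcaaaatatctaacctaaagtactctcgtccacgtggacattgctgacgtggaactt
GH3.3, chr2:9866563-9866812, minus strand: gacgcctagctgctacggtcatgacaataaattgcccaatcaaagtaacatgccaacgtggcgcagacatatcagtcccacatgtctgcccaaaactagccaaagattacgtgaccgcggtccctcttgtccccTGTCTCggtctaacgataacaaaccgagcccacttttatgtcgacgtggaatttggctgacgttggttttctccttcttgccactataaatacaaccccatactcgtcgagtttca

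IAA1 holds 2 matches, both on the reverse strand, and the others 1 each on the forward strand, which starts 14 bases before the start of LBD33, 144 before that of GH3.2 and 116 before that of GH3.3. These genes are examples with a match. IAA3, IAA29, LBD18 and LBD29, which were also called, hold none in the same stretch before their starts. Such matches are common. Of the 20312 protein-coding genes tested, 14.8% hold TGTCTC or TGTCGG in this window, with 12.7% of 739 genes higher and 17.7% of 1048 genes lower at 16 h. For TGTCTC alone the shares were 10.6% of all, 9.2% of the higher and 12.2% of the lower genes. A match is a run of letters and no evidence of binding.

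Among receptors and ARFs, 3 of 17 were higher and 1 was lower, beside 3.58% and 5.08% of all genes, all by under 2-fold. ARF5 (MONOPTEROS), an activating ARF, had 39.8, 40.1 and 29.4 CPM in CASP1::shy2-2/slr-1, against 22.7, 24.2 and 19.6 CPM in slr-1 (0.72 ± 0.16, adjusted p = 0.00296). ARF16, of the repressing class, had 29.2, 36.3 and 36.2 CPM in CASP1::shy2-2/slr-1, against 54.5, 56.3 and 65.9 CPM in slr-1 (-0.80 ± 0.09, adjusted p = 4.73e-07). The receptor gene AFB2 differed by 0.29 ± 0.06 (adjusted p = 0.00088). In the fit of the 6 libraries alone the calls of ARF5 and AFB2 were lost (adjusted p = 0.0659 and 0.129). ARF1 (0.25 ± 0.08, adjusted p = 0.0319) lost its call without slr-1 replicate 1 or 2 or CASP1::shy2-2/slr-1 replicate 3 (adjusted p up to 0.188) and under the replicate block (adjusted p = 0.0638), within 0.00161 to 0.36 over the alternatives. Without slr-1 replicate 3 the higher ones numbered 5. Of the 10 auxin synthesis genes tested 0 were called by edgeR and 0 by DESeq2, with 2 under an unadjusted p of 0.05, while the replicate block called 1 higher and 1 lower.

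Of 21 auxin transport genes, WAG2, a kinase that sets the polarity of PIN efflux carriers, was lower, with 0.289, 0.333 and 0.171 CPM in CASP1::shy2-2/slr-1 and 1.47, 1.46 and 1.45 CPM in slr-1 (-2.43 ± 0.40, adjusted p = 8.84e-05). PILS3 and PILS5, carriers of the endoplasmic reticulum, were higher, by 0.41 ± 0.11 and 0.76 ± 0.23. Both calls were lost without slr-1 replicate 1 and without CASP1::shy2-2/slr-1 replicate 3, and that of PILS5 without slr-1 replicate 2 too (adjusted p up to 0.0875 and 0.314). In the main fit 2 of the 21 were higher and 1 was lower, where 3.58% and 5.08% of all genes were. Without slr-1 replicate 3 the list had 3 higher and 2 lower. With the replicate block 5 transport genes were lower, among them LAX3, an influx carrier of cells over a lateral root primordium (-0.39, adjusted p = 0.0212, from that value to 0.752 over the alternatives).

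Lateral root initiation was represented by 17 genes, of which 4 were lower and 0 were higher, with a median of -0.16, where 5.08% of all genes were lower. LBD18, a LOB-domain factor downstream of ARFs, had 4.36, 5.36 and 6.77 CPM in CASP1::shy2-2/slr-1, against 39, 39.6 and 35.5 CPM in slr-1 (-2.80 ± 0.14, adjusted p = 2.1e-14). LBD33 had 0.0723, 0.178 and 0.199 CPM in CASP1::shy2-2/slr-1 and 1.6, 2.53 and 2.58 CPM in slr-1 (-3.88 ± 0.58, adjusted p = 2.43e-05). LBD29 had 11.3, 18.1 and 16 CPM in CASP1::shy2-2/slr-1 and 35.3, 40.4 and 42 CPM in slr-1 (-1.37 ± 0.23, adjusted p = 0.000148).

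The LBD genes reached these levels by unlike courses. LBD18 did not differ detectably without NAA (-0.13, adjusted p = 0.56), then differed by -2.02, -2.16, -2.80, -2.80 and -1.95 at 2, 4, 8, 16 and 24 h. LBD29 was furthest apart without NAA and at 2 h, at -3.92 and -4.21 (adjusted p = 3.23e-09 and 2.37e-11), and closed to -3.08, -2.58, -1.37 and -1.40 at 4, 8, 16 and 24 h. LBD16, the best known of the family, stood at 4.79, 5.74 and 5.46 CPM in CASP1::shy2-2/slr-1 and 5.77, 6.86 and 5.31 CPM in slr-1, a difference of -0.16 ± 0.16 that did not pass (adjusted p = 0.586), although it had been lower without NAA by -1.77. LBD16 was chosen after its value was seen. The fourth call, the cell cycle factor E2FA (-0.39 ± 0.12, adjusted p = 0.0447), was lost with any library left out except slr-1 replicate 3 and CASP1::shy2-2/slr-1 replicate 1 (adjusted p up to 0.242). In whole root sections, fewer cells that express a gene and less transcript per cell cannot be told apart.

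**Figure D3:**
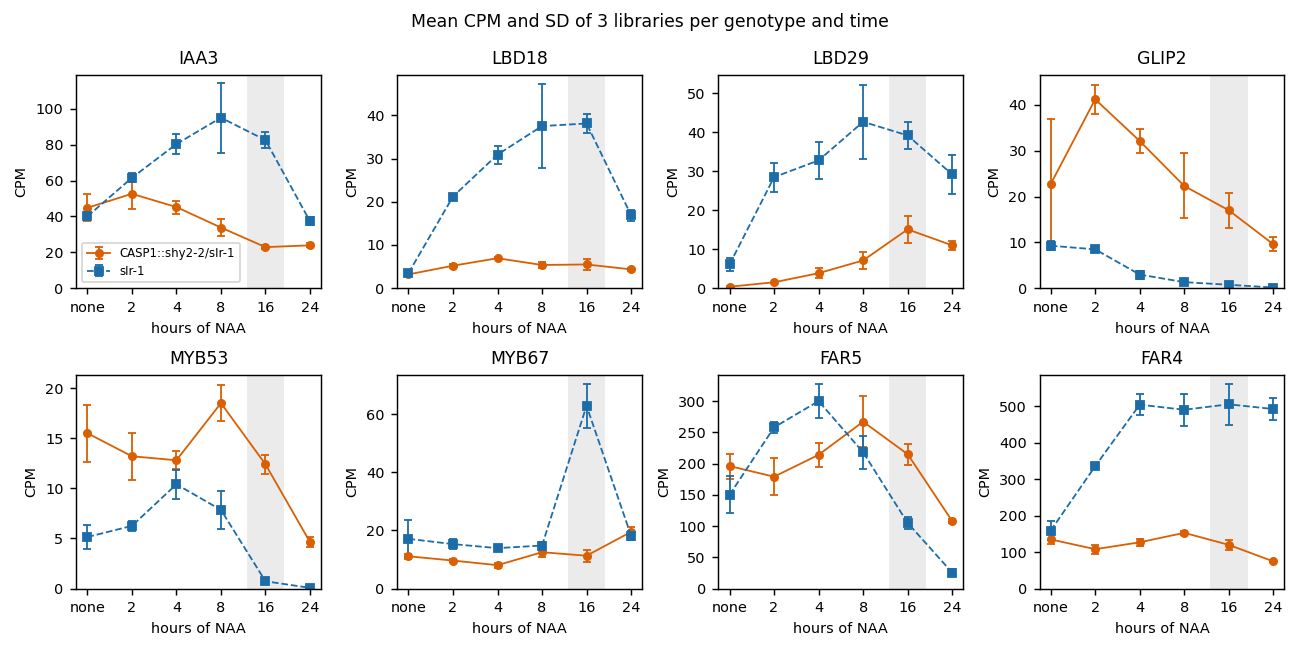
Mean CPM with SD of 3 libraries (y axis) against hours of NAA (x axis) in CASP1::shy2-2/slr-1 (orange circles, solid line) and slr-1 (blue squares, dashed line), with the 16 h point shaded. At 16 h LBD18 averages 5.5 CPM in CASP1::shy2-2/slr-1 and 38.1 CPM in slr-1, and MYB67 averages 11.3 CPM in CASP1::shy2-2/slr-1 and 62.9 CPM in slr-1, its peak.

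Of 10 genes tested for separation of the tissue over a primordium 1 was called, where 8.66% of all genes passed. This was QRT2, a polygalacturonase that loosens pectin. It had 11.3, 11.7 and 17 CPM in CASP1::shy2-2/slr-1 and 3.6, 3.35 and 7.89 CPM in slr-1 (1.43 ± 0.23, adjusted p = 6.01e-05), and the call was lost in the fit of the 6 libraries alone (adjusted p = 0.116). The peptide gene IDA had 6 reads over the 3 libraries of CASP1::shy2-2/slr-1 and 13 over those of slr-1. That is a ratio of 2.12 in slr-1 over CASP1::shy2-2/slr-1, with an exact 95% counting interval of 0.751 to 6.8.

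Genes of the Casparian strip were higher in CASP1::shy2-2/slr-1 where they differed, apart from SHR: 4 of 15 passed upward and 1 downward, against 3.58% and 5.08% of all genes, 13 of 15 had a positive difference, and the median was 0.83. MYB36, the factor that switches on the strip's genes, had 7.78, 5.96 and 11.3 CPM in CASP1::shy2-2/slr-1, against 1.65, 2.34 and 1.23 CPM in slr-1 (2.26 ± 0.35, adjusted p = 3.64e-05). The kinase gene AT1G61590 had 22.1, 21.3 and 62.9 CPM in CASP1::shy2-2/slr-1 and 10.2, 10.9 and 19.9 CPM in slr-1 (1.37 ± 0.29, adjusted p = 0.00198), and fell to 0.67 without CASP1::shy2-2/slr-1 replicate 3 (adjusted p = 0.0665, from 1.07e-05 to 0.28 over the alternatives). GSO1, the receptor that surveys the integrity of the strip, had 97.3, 105 and 86.3 CPM in CASP1::shy2-2/slr-1 and 48.6, 47.9 and 66 CPM in slr-1 (0.83 ± 0.20, adjusted p = 0.00742), a call lost without slr-1 replicate 1 or 2 (adjusted p up to 0.0582). SCR, a factor of endodermal identity, differed by 0.44 ± 0.12 (adjusted p = 0.0134) and SHR, its partner, by -0.30 ± 0.09 (adjusted p = 0.0269). The SCR call was lost without replicate 1 of either genotype (adjusted p up to 0.0747), and the SHR call without slr-1 replicate 1 or 2 or CASP1::shy2-2/slr-1 replicate 2 or 3 (adjusted p up to 0.258) and under the block (adjusted p = 0.135).

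CASP1, CASP2 and CASP4, whose proteins scaffold the strip, had positive differences of 0.99 to 1.47 with standard errors of 0.72 to 0.82, and none of them passed. Their CPM were highest in replicate 1 of CASP1::shy2-2/slr-1 and lowest in replicate 3 of slr-1. Without slr-1 replicate 1 the list had 2 genes higher and 0 lower. With the replicate block 8 genes of the list were higher and 0 were lower, CASP1 and CASP2 among them (adjusted p = 0.0386 and 0.0493, against up to 0.609 and 0.51 over the alternatives), and in the fit of the 6 libraries alone 2 were higher. CASP2 and CASP4 were named after their values were seen. CASP5 had 3 reads in all in CASP1::shy2-2/slr-1 and 2 in slr-1. The 4 dirigent-like genes, a family that includes a protein of the strip, had a median of 1.50 and 0 calls by edgeR or DESeq2, with 1 under an unadjusted p of 0.05. With the replicate block 3 of the 4 passed, AT2G39430, AT4G13580 and AT3G24020 (adjusted p = 0.0117, 0.0186 and 0.026, against up to 0.775 over the alternatives).

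Suberin genes split. Of the 16 for synthesis and export 7 were higher and 6 were lower in CASP1::shy2-2/slr-1, 13 of 16 in all where 8.66% of all genes passed, and the median was 0.00. The split ran within families. Of the fatty acyl reductases, which make suberin's primary alcohols, FAR1 had 42.4, 42.8 and 38.2 CPM in CASP1::shy2-2/slr-1, against 198, 229 and 251 CPM in slr-1 (-2.46 ± 0.19, adjusted p = 1.01e-10). FAR4 had 106, 123 and 132 CPM in CASP1::shy2-2/slr-1, against 460, 489 and 569 CPM in slr-1 (-2.07 ± 0.11, adjusted p = 4.73e-14). FAR5 went the other way, with 229, 219 and 197 CPM in CASP1::shy2-2/slr-1 and 110, 111 and 94.3 CPM in slr-1 (1.03 ± 0.14, adjusted p = 6.53e-06). FAR1 overlaps a neighbouring model by 1310 bases and FAR4 a long noncoding one by 198, so both counts may hold other reads.

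The elongases and exporters were divided as well. KCS1 was lower (-1.07 ± 0.15, adjusted p = 9.94e-06) and KCS20 higher (1.03 ± 0.18, adjusted p = 0.000184), while KCS2 did not pass (-0.19 ± 0.20). ABCG6, a transporter that exports suberin building blocks, had 76, 85.1 and 141 CPM in CASP1::shy2-2/slr-1 and 20.4, 18 and 47.3 CPM in slr-1 (1.82 ± 0.28, adjusted p = 3.31e-05), a call lost in the fit of the 6 libraries alone (adjusted p = 0.0972). Its relatives ABCG20 and ABCG2, of the same role, were lower, by -0.93 ± 0.22 and -0.52 ± 0.14 (adjusted p = 0.00486 and 0.0184), and the ABCG2 call was lost without replicate 3 of either genotype (adjusted p up to 0.0972). Among acyltransferases that add phenolics, ASFT, which adds ferulate, was higher (0.72 ± 0.19, adjusted p = 0.0163) and FACT, which adds caffeate to fatty alcohols, was lower (-0.54 ± 0.11, adjusted p = 0.00109). The ASFT call was lost without slr-1 replicate 1 or 2 or CASP1::shy2-2/slr-1 replicate 3 (adjusted p up to 0.111).

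Of the enzymes that build the aliphatic monomers, the oxidases CYP86B1 and CYP86A1 and the acyltransferase GPAT5 were higher, and the acyltransferase GPAT7 did not pass (0.20 ± 0.32, adjusted p = 0.766). CYP86B1 had 49.5, 58 and 48.6 CPM in CASP1::shy2-2/slr-1 and 20.3, 20.3 and 34.5 CPM in slr-1 (1.06 ± 0.24, adjusted p = 0.00341). CYP86A1 had 386, 404 and 352 CPM in CASP1::shy2-2/slr-1 and 190, 176 and 286 CPM in slr-1 (0.81 ± 0.25, adjusted p = 0.0448), and GPAT5 differed by 0.59 ± 0.18 (adjusted p = 0.0424). Both of these last calls were lost with any library left out except slr-1 replicate 3 (adjusted p up to 0.22 and 0.211). In slr-1 replicate 3 the levels of CYP86B1, CYP86A1 and GPAT5 were the highest of slr-1 and still below every library of CASP1::shy2-2/slr-1. With 1 library left out, 4 to 7 genes of the list were higher and 5 or 6 lower: 4 higher without slr-1 replicate 1, slr-1 replicate 2 or CASP1::shy2-2/slr-1 replicate 3. In the fit of the 6 libraries alone 1 was higher and 3 were lower. Genes of the list other than FAR1, FAR4, FAR5, KCS1, ABCG6 and GPAT7 were named after their values were seen.

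The lower suberin calls were made after NAA and not without it. Without NAA 5 of the 16 were higher and 0 were lower, and the difference between the 2 conditions passed for 6 genes in the lower direction and 2 in the higher. FAR4 and FAR1 then differed by -0.23 and -0.43 (adjusted p = 0.108 and 0.0782), and KCS1, FACT, ABCG2 and ABCG20 by -0.04 to 0.26, none of which passed. The 16 h difference exceeded the untreated one by -1.84 for FAR4 and -2.03 for FAR1 (adjusted p = 3.42e-09 and 5e-06 for the difference of differences). Under NAA FAR5 was first lower and later higher, at -0.52 and -0.49 at 2 and 4 h (adjusted p = 0.00941 and 0.0186) and 2.08 at 24 h (adjusted p = 1.18e-11). Its 16 h difference of 1.03 exceeded the untreated one by 0.64, so the untreated estimate was positive as well. ABCG6 was also first lower and later higher under NAA, at -1.01 and -1.07 at 2 and 4 h and 3.00 at 24 h (adjusted p = 0.0086, 0.00723 and 1.22e-08).

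Of 8 MYB factors linked to suberin, 4 were higher and 1 was lower, where 3.58% of all genes were higher and 5.08% lower. MYB53 had 11.8, 12 and 13.5 CPM in CASP1::shy2-2/slr-1, against 0.607, 0.718 and 0.86 CPM in slr-1 (4.09 ± 0.21, adjusted p = 2.81e-14). MYB92, its close relative, had 29.8, 31.1 and 31.2 CPM in CASP1::shy2-2/slr-1 and 8.78, 8.85 and 11.1 CPM in slr-1 (1.68 ± 0.15, adjusted p = 1.88e-09). MYB41, which can switch on suberin genes when overexpressed, had 2.41, 2.85 and 5.12 CPM in CASP1::shy2-2/slr-1 and 0.282, 0.425 and 0.959 CPM in slr-1 (2.63 ± 0.43, adjusted p = 9.91e-05). MYB9 differed by 1.66 ± 0.26 (adjusted p = 5.46e-05), with reads that may include those of a model overlapping it by 1447 bases.

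MYB67 was the exception, with 11.4, 9.11 and 13.3 CPM in CASP1::shy2-2/slr-1 and 66.2, 68.2 and 54.3 CPM in slr-1 (-2.48 ± 0.17, adjusted p = 9.35e-12). It was lower at some other times too, but by less: the difference was -0.63 without NAA (adjusted p = 0.00649), -0.67, -0.79 and -0.24 at 2, 4 and 8 h and 0.09 at 24 h (adjusted p = 0.00545, 0.00158, 0.352 and 0.772). MYB53 instead ran 1.08, 0.30, 1.24, 4.09 and 6.00 at 2, 4, 8, 16 and 24 h, and in slr-1 its level at 16 h lay -2.82 ± 0.21 from the untreated one (adjusted p = 1.66e-10), against -0.32 ± 0.17 in CASP1::shy2-2/slr-1 (adjusted p = 0.152). These 2 responses share the 16 h libraries with the genotype comparison. MYB107 and MYB93 did not pass, at -0.84 and 0.52, and passed under the replicate block (adjusted p = 0.0452 and 0.00475, against up to 0.56 and 0.397 over the alternatives), which made 5 higher and 2 lower. With slr-1 replicate 3 left out 6 were higher, and with CASP1::shy2-2/slr-1 replicate 3 left out 2 were lower. MYB93 and MYB107 were named after their values were seen.

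**Figure D4:**
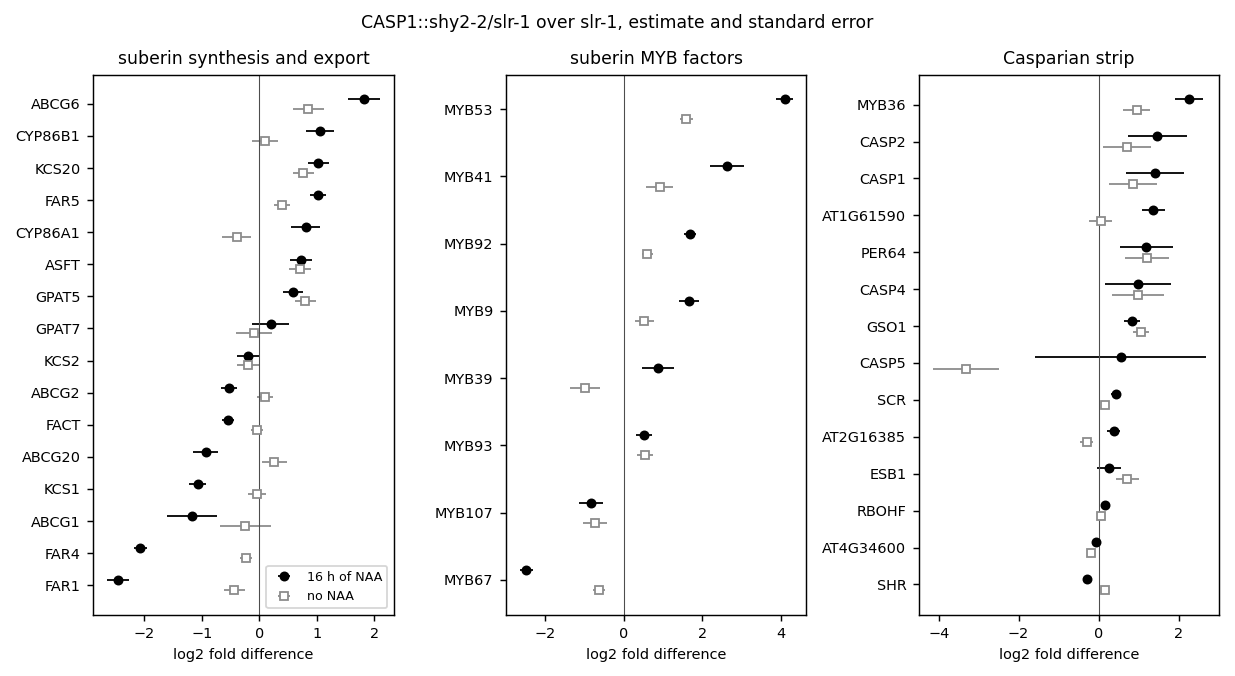
Log2 fold difference, CASP1::shy2-2/slr-1 over slr-1, with its standard error (x axis) for genes of suberin synthesis and export, suberin MYB factors and genes of the Casparian strip (y axis), at 16 h of NAA (filled circles) and without NAA (open squares). At 16 h FAR1 and FAR4 lie beyond -2 and MYB53 beyond 4, while their untreated values are -0.43, -0.23 and 1.59.

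GDSL esterase/lipases are a large family of secreted enzymes, some of which are known to assemble or break down suberin and cutin. Of 99 annotated members 54 were tested, and 9 were higher and 6 were lower, where 8.66% of all genes passed, with a median of 0.10. Apart from GLIP2, the largest rise was that of AT5G45960, with 1.35, 1.24 and 1.85 CPM in CASP1::shy2-2/slr-1 and 0.0217, 0 and 0.123 CPM in slr-1, or 177 and 6 reads. The ratio of reads was 30.2 in CASP1::shy2-2/slr-1 over slr-1, with an exact 95% counting interval of 13.6 to 83.3. AT2G23540 had 427, 438 and 450 CPM in CASP1::shy2-2/slr-1 and 139, 134 and 234 CPM in slr-1 (1.37 ± 0.24, adjusted p = 0.000188). AT1G74460 differed by 1.21 ± 0.21 (adjusted p = 0.000159), with 64.7, 52.5 and 94.2 CPM in slr-1, all below the libraries of CASP1::shy2-2/slr-1. In both slr-1 replicate 3 was the highest of slr-1. AT2G23540 and AT1G74460, and AT3G48460 and AT1G28660 below, were named after their values were seen.

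The deepest falls of the family were in genes with few reads. AT3G48460 had 2 reads over the 3 libraries of CASP1::shy2-2/slr-1 and 232 over those of slr-1, a ratio of 113 in slr-1 over CASP1::shy2-2/slr-1 with an interval of 31 to 942. GLIP6 had 7 reads in CASP1::shy2-2/slr-1 and 346 in slr-1 (48.3, interval 23.2 to 121), and AT2G30310 had 7 and 228 (31.8, interval 15.2 to 80.1), both as slr-1 over CASP1::shy2-2/slr-1. These intervals cover counting error only. AT1G28590 was higher (1.65 ± 0.14, adjusted p = 1.06e-09) and so was its neighbour in the family AT1G28660 (0.77 ± 0.11, adjusted p = 1.33e-05), whose reads may be shared with near copies. With 1 library left out 8 to 12 members were higher, and 3 were lower without slr-1 replicate 2 or CASP1::shy2-2/slr-1 replicate 3.

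Cell division genes were lower where they passed. Of 34 tested, 9 were lower, where 5.08% of all genes were, and 0 were higher, 29 had a negative difference, and the median was -0.34. The calls were CYCB2;2, CYCB1;3, CYCB1;4, CYCA2;2, CDKB1;1, CDKB1;2, CDKB2;2, AUR1 and KNOLLE, which act from the entry into mitosis to the division of the cell. CYCB2;2 had 14.8, 15.2 and 14 CPM in CASP1::shy2-2/slr-1 and 24, 24.2 and 18.1 CPM in slr-1 (-0.59 ± 0.13, adjusted p = 0.00401), and AUR1, a mitotic kinase, had 13.3, 11.9 and 11.8 CPM in CASP1::shy2-2/slr-1 and 18, 18 and 14.3 CPM in slr-1 (-0.44 ± 0.10, adjusted p = 0.00345). Genes of DNA replication did not pass, with the helicase subunits MCM2 to MCM7 and the sliding clamps PCNA1 and PCNA2 at -0.18 to 0.10. The differences were small and depended on the libraries, with 2 calls without slr-1 replicate 1 or 2, 3 without CASP1::shy2-2/slr-1 replicate 2, 4 without CASP1::shy2-2/slr-1 replicate 3 and 15 without slr-1 replicate 3. They numbered 15 under the replicate block, 1 in the fit of the 6 libraries alone and 0 without both replicates 2. All of these genes but CYCB2;2, CYCA2;2, CDKB1;2, CDKB2;2 and AUR1 were named after their values were seen. Without NAA 7 of the 34 were lower and 0 were higher, where 12.7% and 12.3% of all genes were, and the median was -0.12. The difference between the 2 conditions passed for 0 genes of the list in either direction.

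Of 11 xylem markers 5 were lower in CASP1::shy2-2/slr-1 and 0 were higher, against 5.08% and 3.58% of all genes, and the median was -0.67. The cellulose synthases of the secondary wall IRX1 and IRX5 differed by -0.77 ± 0.17 and -0.67 ± 0.15 (adjusted p = 0.0029 and 0.0036). IRX1 had 13.4, 14 and 10.7 CPM in CASP1::shy2-2/slr-1 and 24.8, 22.7 and 17.5 CPM in slr-1, with no overlap of the groups. The others were IRX3, IRX9 and the xylem protease XCP1. Their calls were lost without slr-1 replicate 1, with IRX3 and IRX9 lost also without slr-1 replicate 2 or CASP1::shy2-2/slr-1 replicate 3, XCP1 without slr-1 replicate 3, and IRX3 and XCP1 without CASP1::shy2-2/slr-1 replicate 1 or 2 (adjusted p up to 0.222, 0.0946 and 0.173). The summed level of the list was 210, 226 and 279 CPM in CASP1::shy2-2/slr-1 and 314, 275 and 359 CPM in slr-1, so the sums of the groups overlapped. Without NAA the median was 0.28 with 1 higher and 0 lower, and the difference of differences was -1.11 for IRX1 and -1.09 for IRX5 (adjusted p = 0.00292 and 0.00113). The count was 2 without slr-1 replicate 1, 3 without slr-1 replicate 2 or CASP1::shy2-2/slr-1 replicate 1 or 2, 7 under the replicate block and 0 in the fit of the 6 libraries alone.

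Lignin and wall enzymes had 2 calls in each of their lists, read against 5.08% of all genes lower and 3.58% higher. Of 19 phenylpropanoid and lignin genes 2 were lower, the laccase LAC17 (-0.64 ± 0.12, adjusted p = 0.000678) and the reductase CCR1 (-0.46 ± 0.10, adjusted p = 0.00294), and the median was 0.09, with 4 lower under the replicate block. Both models overlap others. Of 17 expansins and xyloglucan enzymes 2 were lower. XTH24 had 9.44, 9.09 and 9.44 CPM in CASP1::shy2-2/slr-1 and 31, 31.4 and 27.3 CPM in slr-1 (-1.68 ± 0.25, adjusted p = 2.48e-05). Without NAA XTH24 differed by 0.31, which did not pass. XTH32 differed by -0.59 ± 0.11 (adjusted p = 0.000763). The calls of CCR1 and XTH32 were lost in the fit of the 6 libraries alone (adjusted p = 0.172 and 0.116). Under the replicate block 1 of the wall list was higher and 7 were lower.

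Other hormone pathways had 2 or 3 calls each, read against 8.66% of all genes. Of 21 ethylene genes 3 were lower, the receptors ETR2, ERS1 and ERS2 at -0.51, -0.25 and -0.45, and each of these calls was lost without CASP1::shy2-2/slr-1 replicate 2, where edgeR called 0 of the list. ETR2 and ERS1 were lost also without slr-1 replicate 1 or 2, ETR2 without CASP1::shy2-2/slr-1 replicate 3, ERS1 without slr-1 replicate 3, and ERS1 and ERS2 without CASP1::shy2-2/slr-1 replicate 1 (adjusted p up to 0.115, 0.262 and 0.0762). The ERS1 call was also lost under the block (adjusted p = 0.0846, within 0.0101 to 0.403 over the alternatives). Of 24 cytokinin genes CKX4, a cytokinin oxidase, was higher, with 22.2, 29.8 and 39.2 CPM in CASP1::shy2-2/slr-1 and 16.7, 15.4 and 14.1 CPM in slr-1 (0.98 ± 0.20, adjusted p = 0.0016). Under the block its adjusted p was 0.0541, within 5.88e-05 to 0.0677 over the alternatives. IPT3, an enzyme of cytokinin synthesis, was higher by 0.91 ± 0.27 (adjusted p = 0.0336), a call lost without slr-1 replicate 2 or 3 or CASP1::shy2-2/slr-1 replicate 1 or 2 (adjusted p up to 0.121).

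The next 2 hormone lists were read against 5.08% of all genes lower and 3.58% higher. Of 11 abscisic acid genes 2 were lower. RD29A, a stress-response gene, had 39.8, 39 and 39.9 CPM in CASP1::shy2-2/slr-1 and 83.3, 87.5 and 92.8 CPM in slr-1 (-1.15 ± 0.22, adjusted p = 0.000693). NCED3, an enzyme of abscisic acid synthesis, had 4.19, 3.87 and 2.16 CPM in CASP1::shy2-2/slr-1 and 8.3, 12 and 4.6 CPM in slr-1 (-1.27 ± 0.35, adjusted p = 0.0212), and was higher in CASP1::shy2-2/slr-1 without NAA (adjusted p = 0.0212). Its 16 h call was lost without slr-1 replicate 1 or 2 or CASP1::shy2-2/slr-1 replicate 3 (adjusted p up to 0.2). Of 13 jasmonate genes 2 were higher, the factor MYC2 (0.38 ± 0.09, adjusted p = 0.00708, and 0.112 in the fit of the 6 libraries alone), whose model another overlaps by 3241 bases, and the repressor JAZ2 (0.28 ± 0.08, adjusted p = 0.0321), whose call was lost without slr-1 replicate 1 or CASP1::shy2-2/slr-1 replicate 2 (adjusted p up to 0.169).

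Uptake of water and nutrients was tested in 3 lists, read against 5.08% of all genes lower and 3.58% higher. Of 15 aquaporins 4 were lower. TIP1;2, of the vacuole membrane, had 279, 187 and 297 CPM in CASP1::shy2-2/slr-1 and 442, 447 and 401 CPM in slr-1 (-0.76 ± 0.13, adjusted p = 0.000155), and PIP2;5, of the plasma membrane, had 32, 24.3 and 20.8 CPM in CASP1::shy2-2/slr-1 and 56.8, 62.4 and 42.7 CPM in slr-1 (-1.07 ± 0.23, adjusted p = 0.00203). The others were PIP1;4 and PIP2;3, of which PIP2;3 has a near copy in PIP2;2 (-0.04 ± 0.25). The PIP1;4 call was lost without slr-1 replicate 1 or 2 or CASP1::shy2-2/slr-1 replicate 3, and the PIP2;3 call without CASP1::shy2-2/slr-1 replicate 1 or 2 (adjusted p up to 0.116 and 0.13). No aquaporin passed in the fit of the 6 libraries alone. The list was further down without NAA, with a median of -0.47 against -0.16 at 16 h. Without NAA 6 of the 15 were lower and 0 were higher, where 12.7% and 12.3% of all genes were. The difference between the 2 conditions passed for 1 aquaporin in each direction.

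Of 8 nitrate genes the transporter NRT1.8 (-1.21 ± 0.35) and the accessory protein NRT3.1 (-0.43 ± 0.11) were lower, where 5.08% of all genes were. Both calls were lost without slr-1 replicate 1 or 2 or CASP1::shy2-2/slr-1 replicate 3, and that of NRT3.1 without CASP1::shy2-2/slr-1 replicate 2 too (adjusted p up to 0.137 and 0.144). Of 18 iron genes 15 had a positive difference, and 1 passed, where 8.66% of all genes did. BHLH101, a factor induced by iron deficiency, had 7.32, 8.03 and 31.4 CPM in CASP1::shy2-2/slr-1 and 3.3, 3.22 and 6.81 CPM in slr-1 (1.80 ± 0.46, adjusted p = 0.0112). Its replicate 3 was the highest library of both genotypes, and the call was lost without CASP1::shy2-2/slr-1 replicate 3, where the difference was 0.80, and without slr-1 replicate 1 or 2 (adjusted p up to 0.279). Under the replicate block 5 iron genes were higher and 1 was lower, among the higher BHLH38, BHLH39 and BHLH100 (adjusted p = 0.022, 0.00119 and 0.000144, against up to 0.405, 0.327 and 0.442 over the alternatives).

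**Figure D5:**
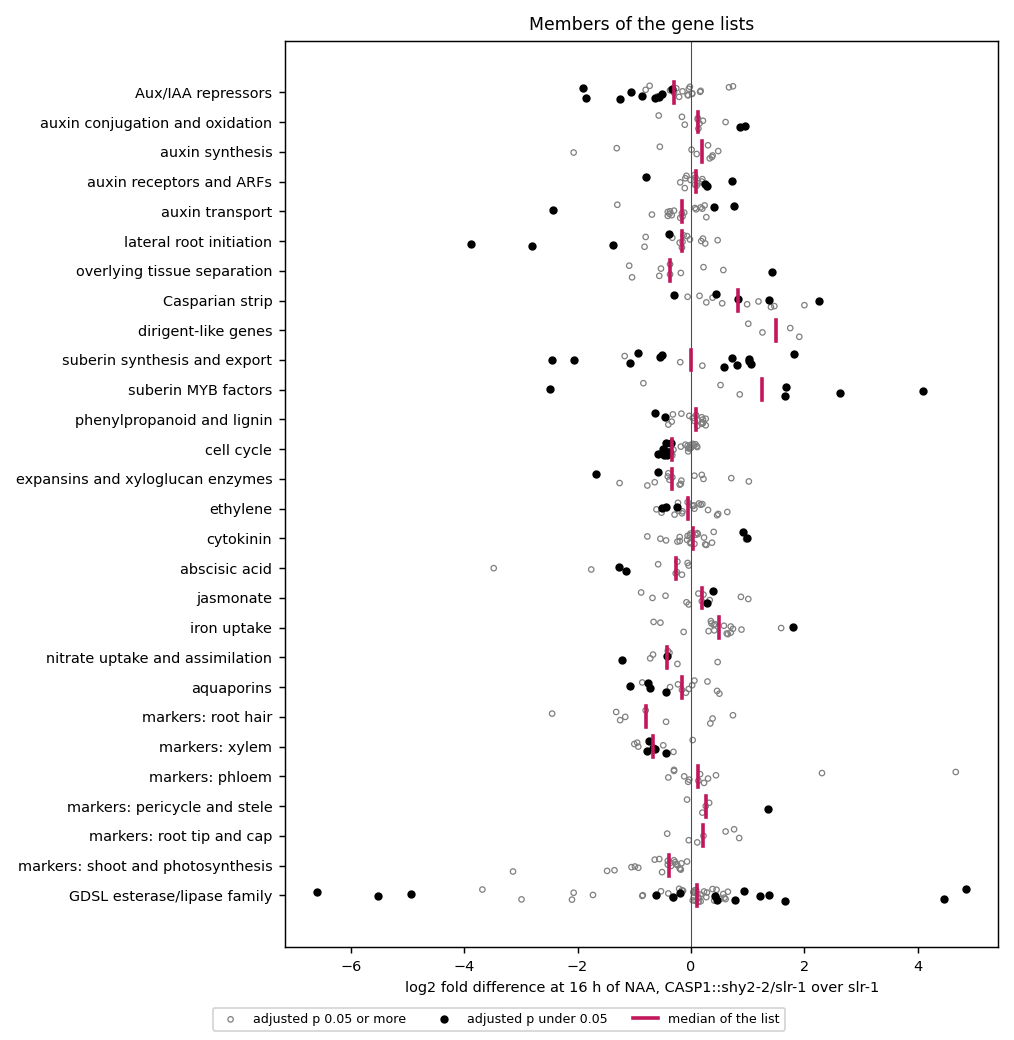
Log2 fold difference at 16 h, CASP1::shy2-2/slr-1 over slr-1 (x axis), of every tested member of each gene list (y axis), with filled points at an adjusted p under 0.05 and the median of each list as a red bar. Suberin synthesis has 7 filled points above 0 and 6 below, and the Aux/IAA, cell cycle and xylem lists have filled points below 0 alone.

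Markers of cells that the section could hold in unequal amounts were read beside these groups. The 22 shoot and photosynthesis genes had 0 calls by edgeR or DESeq2, 3 members under an unadjusted p of 0.05, 22 of 22 negative differences and a median of -0.39, and their summed level was 234, 254 and 511 CPM in CASP1::shy2-2/slr-1 and 314, 359 and 629 CPM in slr-1. Replicate 3 was the highest of each genotype, and with the replicate block 7 were lower, LHCB1.3, LHCB2.1 and GAPB among them (adjusted p = 0.000659, 0.0028 and 0.00632, against up to 0.642 over the alternatives). The 7 root tip and cap genes had 0 calls by either tool and 0 under an unadjusted p of 0.05, a median of 0.22 and sums of 5.42 to 11.5 CPM in CASP1::shy2-2/slr-1 and 4.45 to 8.11 CPM in slr-1. The 9 tested root hair genes had 0 calls by either tool and 1 under an unadjusted p of 0.05, a median of -0.80 and sums of 3.07 to 8.14 CPM in CASP1::shy2-2/slr-1 and 3.42 to 9.7 CPM in slr-1. With the replicate block RSL2, a factor of root hair growth, was lower (-1.18, adjusted p = 0.00787, against up to 0.415 over the alternatives). Of 13 phloem genes 0 passed with edgeR, 4 had an unadjusted p under 0.05, and 2 were higher with DESeq2 and 2 under the block. Their sums were 418 to 460 CPM in CASP1::shy2-2/slr-1 and 399 to 410 CPM in slr-1. No gene of these 4 lists was at 0 reads in all 6 libraries. The part of these tissues in the differences above was not tested.

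Of 5 pericycle and stele genes SKOR, a potassium channel that loads the xylem, was higher, with 18.3, 17.3 and 23.4 CPM in CASP1::shy2-2/slr-1 and 8.52, 7.52 and 7.05 CPM in slr-1 (1.35 ± 0.36, adjusted p = 0.0167). The call was lost without slr-1 replicate 2 or CASP1::shy2-2/slr-1 replicate 3 (adjusted p up to 0.0697), and 2 genes of the list were higher under the block. The other 4 lay between -0.07 and 0.32. Of all genes, 3.58% were higher.

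Whether the 16 h difference differed from that of untreated roots, by widening, closing or changing sign, was tested as the difference of the 2 differences. It passed for 946 genes in the higher direction (4.52%) and 1030 in the lower (4.92%), a split that became 724 and 1276 when libraries were scaled by their total counts. The 10 genes with the smallest p included SSL2, LBD18 and FAR4, given above. AT1G24430, an acyl-transferase of the same family as AT1G78990, moved the other way and had 21.3, 19.4 and 24.3 CPM in CASP1::shy2-2/slr-1 and 93.9, 102 and 103 CPM in slr-1 (-2.20 ± 0.12, adjusted p = 4.19e-14). ENODL16, an early nodulin-like protein, had 3.13, 2.82 and 3.3 CPM in CASP1::shy2-2/slr-1 and 55.1, 54.8 and 61.6 CPM in slr-1 (-4.21 ± 0.14, adjusted p = 2.87e-18). AT2G36670, an aspartyl protease, had 20.9, 21.6 and 24.7 CPM in CASP1::shy2-2/slr-1 and 133, 138 and 157 CPM in slr-1 (-2.68 ± 0.10, adjusted p = 3.13e-17). AT1G19200, of uncertain function, differed by -3.29 ± 0.16 at 16 h and by -0.14 ± 0.15 without NAA. AT5G08480 differed by -3.35 ± 0.21 and 0.42 ± 0.19, in a model that another overlaps by 1782 bases.

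A pair of the 10 changed sign with NAA. AT2G47560, a RING/U-box protein, had 57.8, 70.6 and 64.6 CPM in CASP1::shy2-2/slr-1 and 30.2, 31.4 and 40.5 CPM in slr-1 at 16 h (0.92 ± 0.15, adjusted p = 6.46e-05), but 9.09 ± 0.584 CPM in CASP1::shy2-2/slr-1 and 31 ± 1.81 CPM in slr-1 without NAA (-1.77 ± 0.15, adjusted p = 4.28e-09). NAA moved it by 2.82 ± 0.16 in CASP1::shy2-2/slr-1 (adjusted p = 4.19e-13) and by 0.13 ± 0.15 in slr-1 (adjusted p = 0.472). AT3G45680, a transporter of the major facilitator superfamily, was the reverse, with 48.5, 45.2 and 51 CPM in CASP1::shy2-2/slr-1 and 88.2, 89 and 97.8 CPM in slr-1 at 16 h (-0.93 ± 0.16, adjusted p = 0.000153) and 176 ± 44.3 CPM in CASP1::shy2-2/slr-1 and 49.6 ± 10.5 CPM in slr-1 without NAA (1.83 ± 0.16, adjusted p = 4.73e-09). Its responses to NAA were -1.87 ± 0.16 in CASP1::shy2-2/slr-1 and 0.89 ± 0.16 in slr-1 (adjusted p = 1.52e-09 and 9.87e-05). The count of genes in this test was 1034 without slr-1 control replicate 1, 1310 without slr-1 16 h replicate 2, 1280 without CASP1::shy2-2/slr-1 16 h replicate 3 and 1152 without CASP1::shy2-2/slr-1 control replicate 3.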

How the data were processed

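The deposited files hold whole-number read counts per gene for each library, made by the authors with cutadapt 1.3, STAR 2.4.0a and HTSeq 0.6.1 on TAIR10, per the submitters' processing notes. Settings, strand use included, are not given in the sources used here. The 5 summary lines, 5.561 to 8.361% of the reads of the 16 h libraries, were left out. From the deposited counts, edgeR 4.0.16 (R 4.3.3, limma 3.58.1) fitted all 36 libraries as 12 groups of 3, with TMM scaling, filterByExpr (11739 genes left out) and the quasi-likelihood F-test on 24 residual degrees of freedom, Benjamini-Hochberg adjusted over 20939 genes at 0.05, and was tested on simulated data. The 16 h contrast, the untreated one, their difference and the other times come from this fit. Every adjusted p is from edgeR unless DESeq2 (1.42.0) is named. CPM values use TMM library sizes. Standard errors are the size of the log2 difference over the square root of F. Names and promoters come from the RefSeq annotation of TAIR10.1, which matched 31912 of 32678 genes.

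Genes were named by a rule. It took IAA3, IAA14 and CASP1, and the 12 largest rises and 12 largest falls. The rises and falls had to pass, to average a log2 CPM of 1 or more and to have groups that do not overlap. Also taken were the 10 smallest p for the difference between the 16 h and the untreated comparisons. In each list up to 5 genes were taken by smallest p and 1 by largest p. The gene lists and the comparison itself were chosen with earlier results of these data known. Lists are described by counts and medians and were not tested as sets. The value of 1 list member is not reported here.

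The labels give replicate numbers only. At 16 h the deviations of same-numbered libraries of the genotypes correlated at 0.518, 0.227 and 0.656. Replicates 1 and 2 also correlated across numbers, at 0.384 for CASP1::shy2-2/slr-1 replicate 1 with slr-1 replicate 2 and 0.238 for the reverse pair. Pairs of a replicate 3 with another number lay between -0.614 and -0.315. Each deviation is from the mean of the 3 libraries of its group. The positive values of replicates 1 and 2 therefore follow in part from that of replicates 3. These values set replicates 3 apart and cannot tell how replicates 1 and 2 pair. The number was taken to pair the libraries at 16 h, as a reading of the data. Without NAA the same-numbered values were 0.0685, -0.0277 and 0.136, and the numbers were not taken to pair. Alternatives were other scalings, DESeq2, other filters, the groups alone with and without the replicate block, the library suffix as a term, each library left out and both replicates 3 left out. A block of the 16 h libraries within the full fit and leaving out both replicates 2 were added after seeing the data.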

Additional observations from a re-analysis of the deposited data

Results flagged for a closer look

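In 72 of the 196 genes that the naming rule chose, the genotype difference at 16 h itself differed from the difference without NAA, tested as an interaction contrast in the edgeR fit of all libraries. Of all genes tested, 4.52% passed this test in the higher direction and 4.92% in the lower. Values are the 16 h log2 difference, CASP1::shy2-2/slr-1 over slr-1, minus the untreated one, and 10 of the genes were chosen by the p of this test. Most others were chosen by the size or p of the 16 h difference, which is part of this test. That choice favours genes that pass and gaps that widened, so the count is not a result about the genes. Of the genes of the genetic background, IAA3 stood at -2.01 and IAA14 at -1.30. Among genes higher in CASP1::shy2-2/slr-1 at 16 h, the gap had widened by 3.95 for AT4G11290, 3.68 for AT1G78990, 3.17 for GLIP2, 2.50 for MYB53, 2.16 for LAC3, 1.60 for AT5G02890, 1.53 for RCI3 and 1.36 for KCS17. For AT2G47560 it was 2.69, with a change of sign.

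Among the largest falls the value was -6.12 for AT5G22430, -5.56 for AT3G62730, -5.49 for SAG29, -4.83 for CEP2, -3.93 for MYB60, -3.85 for HIPP22 and -3.28 for UMAMIT25. It was -1.64 for AT2G38390 and -1.26 for AT5G47550. Of the genes with the smallest p in this test, AT5G08480 stood at -3.77, SSL2 at -3.54, AT1G19200 at -3.15, ENODL16 at -2.77, AT3G45680 at -2.76 with a change of sign, LBD18 at -2.67, AT2G36670 at -2.13, AT1G24430 at -1.99 and FAR4 at -1.84.

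Of genes chosen from the lists that were called at 16 h, those of auxin response stood at -1.39 for IAA29, -1.52 for GH3.2, -0.86 for ARF16 and -0.53 for PILS3. Those of lateral root initiation stood at 2.55 for LBD29 and -0.60 for E2FA. Among barrier genes the value was 1.32 for AT1G61590, -0.47 for SHR, -2.03 for FAR1, 0.64 for FAR5, -1.03 for KCS1, -1.85 for MYB67, 1.08 for MYB92 and 1.14 for MYB9. In the GDSL family GLIP6 stood at -3.93 and AT5G45960 at 2.81. In the xylem list it was -1.11 for IRX1, -1.03 for IRX3, -1.09 for IRX5 and -1.02 for IRX9, and of the stele SKOR stood at 1.58. It was -0.88 for LAC17, -1.99 for XTH24, -0.76 for XTH32, -2.37 for NCED3, -1.0 for PIP2;5 and 1.0 for PIP2;3.

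Genes chosen from the lists that were not called at 16 h also differed in this test. The value was -2.44 for YUC8, -1.17 for YUC2, -0.70 for ARF6, 2.73 for MAKR4, -0.75 for HSL2 and 1.85 for MYB39. It was -1.73 for CYP707A3, -2.11 for CYP707A1, 1.85 for JAZ9, -2.43 for VSP2 and 1.03 for NRT1.5. Of the marker lists FTIP1 stood at 0.63, PHO1 at 0.81, HKT1 at -1.39 and WOX5 at 4.1. AT1G28650 stood at -7.01, with 6 reads over the 16 h libraries of CASP1::shy2-2/slr-1 and 6 over those of slr-1.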

How the results depend on the processing

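The 16 h count of 1814 genes became 658 when only the 6 libraries were fitted, 810 without both replicates 2, 963 at an adjusted p under 0.01 and 662 with a log2 difference beyond 1, and lay between 1092 and 3274 with 1 library left out. It was 1823 and 1820 under the other scalings, 2224 with DESeq2, 1625 with no filter, 1339 at a mean CPM of at least 5, 2628 with the library suffix as a term and 1661 without both replicates 3. With the replicate block it was 2467 in the 6 libraries and 2403 in the full fit. The genes whose 16 h difference differed from the untreated one numbered 1976. They became 790 with only the groups compared, 557 with the replicate block, 3312 with the suffix, 727 at 0.01 and 847 beyond 1. With 1 library left out they numbered 1034 to 2921. The 5223 untreated calls became 2915 with only those groups fitted, 1429 with the replicate block, 2585 at 0.01, 1096 beyond 1 and 2537 to 5633 with 1 library left out. The cause of these shifts was not tested. Of the 100 named genes called, 54 kept their call in every alternative run on them (17 for 87 of the genes, 16 for the others, which the filter at a mean CPM of 5 left out), 46 lost it in at least 1 and 0 reversed; 42 were lost when only the 6 libraries were fitted. The replicate block cost 4 of them their call, added 27 of the 96 not called and changed no other. Depth limits genes with few reads, such as IDA and CASP5, for which no difference was detectable.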

Other observations

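Of the 750 genes higher in CASP1::shy2-2/slr-1 at 16 h, 72 (9.6%) were higher at all 5 other times and 117 (15.6%) at none. Of the 1064 lower genes, 129 (12.1%) were lower at all 5 other times and 196 (18.4%) at none.

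Calls at 16 h were spread over the nuclear chromosomes at 8.03 to 9.43% of the genes tested on each, and 0 of 40 chloroplast and 0 of 21 mitochondrial genes were called by edgeR. SWEET12, a sucrose transporter of the phloem, had 33 reads over the 3 libraries of CASP1::shy2-2/slr-1 and 1 over those of slr-1, a ratio of 33.7 in CASP1::shy2-2/slr-1 over slr-1 with an exact 95% counting interval of 5.65 to 1372.9 that covers counting error only. It was uneven, at 0.0723, 0.0222 and 0.825 CPM in CASP1::shy2-2/slr-1 and 0, 0 and 0.0246 CPM in slr-1, and was not called by edgeR (adjusted p = 0.192, from 0.0284 with DESeq2 to 0.767 over the alternatives). SWEET12 was chosen after its values were seen.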
